A study of Mus musculus with 12 samples.

Results

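Slc17a7, Tbr1, Neurod6, Neurod2, Fezf2, Nrn1 and Lamp5 are 7 genes of cortical neurons, measured here in the mouse nucleus accumbens. They were chosen by name, and every probe that the array's probe-to-gene table gave 1 of these symbols was taken, which yielded 10 of the 45281 probes. The 12 bead arrays (Illumina MouseWG-6 v2.0) fall into 4 groups of 3, each array carrying RNA from bilateral needle punches pooled over 4 wild-type C57BL/6J mice aged 8 to 10 weeks. All mice had daily intraperitoneal injections and were killed 1 h after the last one. In the acute group 14 saline injections preceded a single cocaine injection of 20 mg/kg. The repeated group had 7 saline injections followed by 8 of cocaine at that dose. The withdrawal group received 7 cocaine injections, then 7 of saline and a final cocaine challenge. The saline group had 15 saline injections. The titles number the arrays of each group from 1 to 3, and what arrays of the same number share is not stated in the labels. The 4 mice of a pool cannot be told apart, so each SD below is a spread between pools. Each SE belongs to a fitted difference or slope, estimated from such spreads with information shared across probes.

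The nucleus accumbens is built mainly of medium spiny neurons, which release GABA, and it holds few glutamatergic cell bodies of its own. Excitatory neurons of the cortex fill their synaptic vesicles with glutamate through the transporter that Slc17a7 encodes, and transcription factors such as Tbr1, Neurod2, Neurod6 and Fezf2 set their identity during development. Transcripts of such genes are therefore used as a marker of cortical tissue in a striatal sample. In RNA from whole punches, fewer cells of a type and less RNA per cell cannot be told apart.

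Values are background-subtracted, quantile-normalized bead intensities, and a probe is called detected on an array where its deposited detection p is under 0.05. Between 22189 and 23803 probes were detected per array, and the dimmest detected probe of an array lay between 12.9 and 16.9 intensity units. For log2 values a floor of 10 was set, and 25478 probes detected on at least 3 arrays were kept for tests, among them 8 of the 10 for these genes. Intensities of different probes are not compared with each other. The punches carried the markers of their labelled tissue: 17 of 20 medium spiny neuron genes were kept, and their summed intensity differed 1.20-fold between the lowest and the highest array. Ppp1r1b, a phosphatase inhibitor regulated by dopamine signalling, lay between 13569 and 18485, and the dopamine receptor gene Drd2 between 909 and 1200.

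The data show that 4 of the 7 genes, Slc17a7, Tbr1, Neurod2 and Nrn1, differed by 17.8-fold to 71.1-fold among the arrays that detected them, and that they did so together. Their lowest detected values, 16.0 to 20.4 on the brightest probes, lay near the detection level, so the size of these folds rests on dim values. Fezf2 and Lamp5 were detected on every array and varied by 2.10-fold and 1.77-fold on their brightest probes. Neurod6 was detected on 0 of 12 arrays. The probes of these genes thus differed in detection and range, but a range also depends on the probe. The 2 Neurod2 probes, annotated to the same transcript, ranged 17.8-fold and 4.70-fold over the arrays that detected them. Both Fezf2 probes rose with Slc17a7 over the 12 arrays (r = 0.86 and 0.82), while Lamp5 fell (r = −0.65).

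Slc17a7 encodes VGLUT1, the vesicular glutamate transporter of most cortical excitatory neurons, and lies on chromosome 7 at chr7:45163921-45176139 (GRCm38.p6). Its single probe, ILMN_2618244, read 452, 230.5 and 821 on acute arrays 1 to 3. It read 16.9, 747 and 694 on repeated arrays, 236, 1055 and 75.1 on withdrawal arrays, and 114, 1203 and 28.3 on saline arrays. The lowest value, on repeated array 1, and the highest, on saline array 2, lay 71.1-fold apart, and every group overlapped every other. The probe was detected on all 12 arrays, on repeated array 1 with a detection p of 0.019. That value of 16.9 lay near the detection level, so the size of the 71.1-fold range rests on a dim value. Mean log2 intensity was 8.78 ± 0.92 in acute, 7.69 ± 3.12 in repeated, 8.05 ± 1.91 in withdrawal and 7.30 ± 2.73 in saline (SD, n = 3 each).

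Tbr1 encodes a T-box transcription factor of early-born and deep-layer glutamatergic neurons, at chr2:61802863-61814114. Probe ILMN_2920503 read 121, 72.1 and 209 on acute arrays 1 to 3, and 0.8, 228 and 186 on repeated arrays. It read 61.2, 327 and 20.2 on withdrawal arrays and 18.3, 251 and −5.7 on saline arrays. It was detected on 10 arrays and not on repeated array 1 or saline array 3, which were also the arrays lowest in Slc17a7 and which stood at the floor of 10. Over the 10 arrays that detected it, it ranged 17.9-fold.

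Neurod2 and Neurod6 encode basic helix-loop-helix transcription factors of cortical and hippocampal pyramidal neurons. The brighter Neurod2 probe, ILMN_2771433 (gene at chr11:98325415-98329645), read 119, 90.8 and 229 on acute arrays and 16.0, 207 and 229 on repeated arrays. It read 71.7, 285 and 27.5 on withdrawal arrays and 34.7, 260.4 and 11 on saline arrays. Repeated array 1 and saline array 3 were again lowest, and saline array 3 was the one array that did not detect it. The dimmer Neurod2 probe, ILMN_2862362, read 63.7, 37.6 and 62.0 on acute, 24.7, 52.4 and 51.6 on repeated, 33.0, 85.7 and 18.2 on withdrawal, and 54.5, 65.8 and 14.2 on saline arrays. Saline array 3 did not detect the dimmer probe either. Both probes are annotated to the same transcript, and over the 11 arrays that detected them they ranged 17.8-fold and 4.70-fold. The Neurod6 probe, ILMN_2708982 (gene at chr6:55677818-55681263), lay between −10.6 and 2.9 on all arrays, so that only an upper bound near the detection level can be given and it entered no test.

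Fezf2 encodes a zinc finger factor that specifies deep-layer neurons projecting below the cortex, at chr14:12338992-12346803. Its brighter probe, ILMN_2512430, read 298, 268 and 282 on acute arrays, 155, 270.1 and 269.9 on repeated arrays, 218.5, 326 and 184 on withdrawal arrays, and 188, 238 and 202 on saline arrays. All 3 acute arrays were above all 3 saline arrays, an ordering found in 3.58% of all kept probes. The second probe, ILMN_2932692, read 39.0, 30.2 and 46.2 on acute, 18.1, 48.0 and 52.4 on repeated, 39.2, 55.0 and 24.2 on withdrawal, and 35.2, 54.7 and 40.1 on saline arrays, with acute and saline overlapping. Repeated array 1 was the lowest of all on both probes, as it was for Slc17a7.

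Nrn1 encodes neuritin, a membrane-anchored protein that promotes neurite growth and is induced by neuronal activity, at chr13:36725622-36734477. Probe ILMN_2699052 read 275, 242.5 and 342 on acute arrays 1 to 3, and 20.4, 584 and 437 on repeated arrays. It read 127, 662.5 and 48.7 on withdrawal arrays and 39.3, 713 and 23.8 on saline arrays, being detected on all 12. The 3 acute arrays lay within 1.41-fold of each other, while the repeated arrays spanned 28.6-fold, the withdrawal arrays 13.6-fold and the saline arrays 30.0-fold.

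Lamp5 encodes a lysosome-associated membrane protein of neurons, which in the cortex also marks a class of GABAergic interneurons, and lies at chr2:136052025-136069917. Probe ILMN_1252349 read 4303, 4807 and 2719 on acute arrays, 4550.5, 3441 and 2932.5 on repeated arrays, 3789, 2804 and 4241 on withdrawal arrays, and 3359.7, 3699 and 4271 on saline arrays. The 3 arrays lowest in Slc17a7, repeated array 1, saline array 3 and withdrawal array 3, lay between 4241 and 4550.5. A second Lamp5 probe, ILMN_2565481, which is annotated to another transcript, lay between −4.8 and 10.7 and was detected on 0 of 12 arrays.

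**Figure D1:**
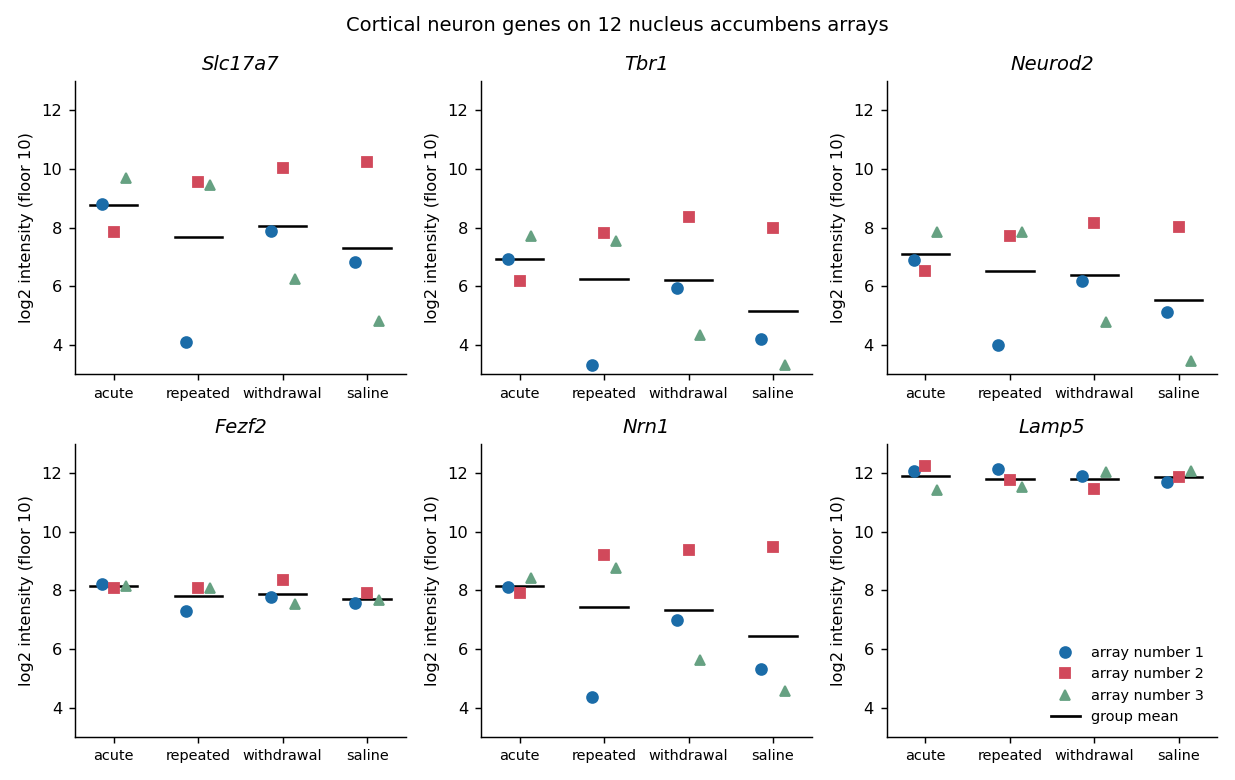
Log2 intensity (floor 10) of the brightest kept probe of 6 genes, by treatment group, with 1 point per array (n = 3 per group), marker shape and colour for the array number, and a black bar for the group mean. Slc17a7, Tbr1, Neurod2 and Nrn1 spread over several log2 units inside the repeated, withdrawal and saline groups, while Fezf2 and Lamp5 stay within 2.10-fold and 1.77-fold over all 12 arrays.

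The spread between arrays of a group was among the largest on the array for 4 of the genes. The pooled within-group SD was 2.33 log2 units for Slc17a7, 2.12 for Nrn1, 2.07 for Tbr1 and 1.83 for the brighter Neurod2 probe. By this SD they ranked 2, 3, 4 and 7 of 25478 kept probes, whose median SD was 0.22. The rank 1 probe measures Slc30a3, the transporter that loads zinc into glutamatergic vesicles, with an SD of 2.37. The dimmer Neurod2 probe had an SD of 0.91 (rank 184), the Fezf2 probes 0.33 and 0.57 (ranks 8320 and 2148), and Lamp5 0.32 (rank 8452).

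**Figure D2:**
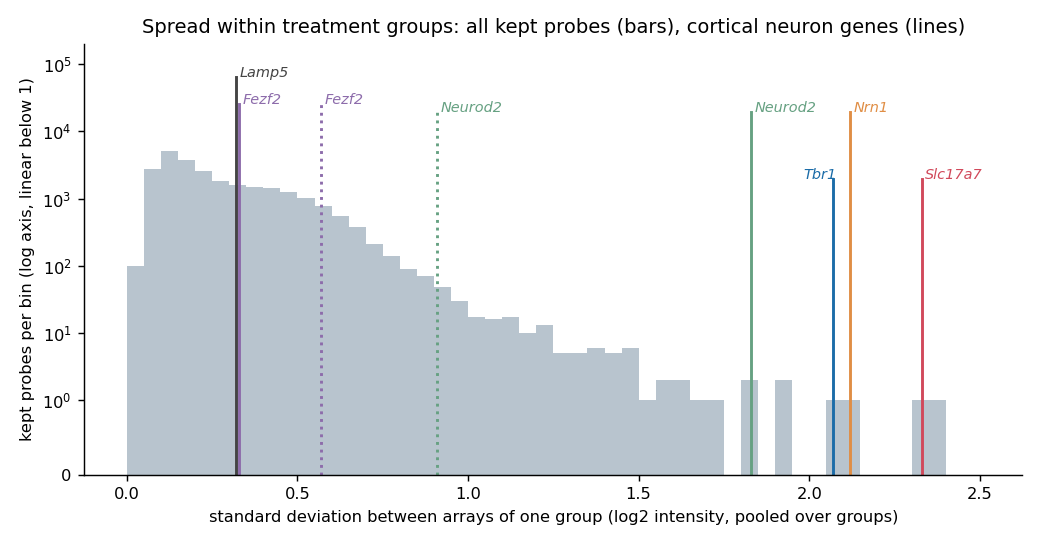
Histogram of the within-group SD of log2 intensity (horizontal axis, pooled over 4 groups) for all 25478 kept probes, with the number of probes per bin on a log axis that is linear below 1. Coloured lines mark the 8 kept probes of the cortical neuron genes, solid for a gene's brightest probe and dotted for a second probe, and their heights carry no value. Slc17a7, Nrn1, Tbr1 and the brighter Neurod2 probe sit at 1.83 to 2.33, against a median of 0.22.

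The promoters of Slc17a7, Tbr1 and Neurod2 are shown because these genes varied together and because Neurod2 itself encodes a factor that binds E-boxes, the motif CANNTG. Each line gives the 250 bases before the start site that RefSeq lists for the gene (GRCm38.p6), with every CANNTG in capitals. The motif reads the same on both strands. The Slc17a7 and Neurod2 windows end where the gene begins, while the listed start site of Tbr1 lies inside the gene's span given above, and so does its window.
Slc17a7, chr7:45163671-45163920, plus strand: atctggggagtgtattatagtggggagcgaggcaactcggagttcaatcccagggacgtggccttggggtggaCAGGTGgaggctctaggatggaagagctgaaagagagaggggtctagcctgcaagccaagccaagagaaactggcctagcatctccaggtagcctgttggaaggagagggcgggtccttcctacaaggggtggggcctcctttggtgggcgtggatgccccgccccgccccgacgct
Tbr1, chr2:61804203-61804452, plus strand: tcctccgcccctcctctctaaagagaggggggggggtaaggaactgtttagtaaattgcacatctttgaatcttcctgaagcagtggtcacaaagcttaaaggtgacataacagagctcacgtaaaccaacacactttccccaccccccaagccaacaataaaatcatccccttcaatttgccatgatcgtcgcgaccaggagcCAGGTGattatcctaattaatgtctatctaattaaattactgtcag
Neurod2, chr11:98329646-98329895, minus strand: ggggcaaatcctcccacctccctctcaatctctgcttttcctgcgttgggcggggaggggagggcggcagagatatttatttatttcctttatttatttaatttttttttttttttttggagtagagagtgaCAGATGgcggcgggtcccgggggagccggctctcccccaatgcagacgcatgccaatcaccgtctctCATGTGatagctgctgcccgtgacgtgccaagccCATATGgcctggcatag

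The Slc17a7 and Tbr1 windows each held 1 CANNTG, in both cases CAGGTG, and the Neurod2 window held 3. One of those, CAGATG, is the form that NeuroD factors are known to bind, and it lies within the CANNTG count. Across 32851 promoter windows of the same length 66.2% held at least 1 CANNTG and 14.4% held CAGATG, so that these matches are common and describe the sequence only. Of the others, the Neurod6 window held 2 CANNTG, the Fezf2 window 0 and both Lamp5 windows 1 each, the Fezf2 and Lamp5 windows also lying inside the gene's span. The RefSeq promoter table held 6 of the 7 genes. The motif TCACAC, on either strand, was also searched for: the Neurod6 window held 1 and every other window 0. Of the 32851 windows 12.3% held it. Regulation of these genes was not tested.

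No difference between a cocaine group and saline passed the test in these genes, and the intervals were wide. Acute minus saline was 1.49 ± 1.69 log2 units for Slc17a7 (SE, n = 3 arrays per group, 95% interval −2.27 to 5.24), 1.77 ± 1.50 for Tbr1, 1.55 ± 1.33 for Neurod2 and 1.70 ± 1.53 for Nrn1. The same difference was 0.44 ± 0.25 for Fezf2 (−0.11 to 0.99) and 0.03 ± 0.24 for Lamp5 (−0.52 to 0.57). In limma with Benjamini-Hochberg adjustment over all kept probes each of these had an adjusted p of 1, so 0 of 8 probes were called, and the call rate over all kept probes was 0%. At an unadjusted p under 0.05 the count was also 0 of 8, against 4.44% of all kept probes. The acute group was the highest of the 4 in the mean of Slc17a7, Tbr1, Neurod2 and Nrn1, and saline the lowest, but intervals this wide cannot separate them. Single saline arrays moved these differences: without saline array 3 they were 0.25 for Slc17a7, 0.85 for Tbr1, 0.51 for Neurod2 and 0.76 for Nrn1, and without saline array 2 they were 2.95, 3.18, 2.79 and 3.21.

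The same held for longer exposure. Repeated minus saline was 0.39 ± 1.69 for Slc17a7, 1.07 ± 1.50 for Tbr1, 0.98 ± 1.33 for Neurod2, 0.11 ± 0.25 for Fezf2, 0.99 ± 1.53 for Nrn1 and −0.07 ± 0.24 for Lamp5 (limma adjusted p between 0.869 and 0.975 over the 8 probes). Withdrawal minus saline was 0.76 ± 1.69 for Slc17a7, 1.05 ± 1.50 for Tbr1, 0.83 ± 1.33 for Neurod2, 0.18 ± 0.25 for Fezf2, 0.87 ± 1.53 for Nrn1 and −0.08 ± 0.24 for Lamp5 (limma adjusted p between 0.882 and 1). In either comparison 0 of 8 probes were called by limma, with 0% of all kept probes called, and 0 of 8 had an unadjusted p under 0.05, against 8.89% and 7.81% of all kept probes. All 3 comparisons share the saline arrays, and all were fitted without pairing arrays by number. Leaving out 1 array turned the sign of several of these differences: without saline array 3 repeated minus saline was −0.85 for Slc17a7, and without withdrawal array 2 withdrawal minus saline was −0.24.

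Between the cocaine groups 0 of 8 probes were called by limma in any of 3 comparisons, at an adjusted or an unadjusted p under 0.05. Over all kept probes the adjusted call rate was 0.00392% for repeated minus acute and 0% for withdrawal minus acute and for withdrawal minus repeated, and the unadjusted rates were 5.41%, 5.65% and 2.11%. The differences ran from −1.10 (Slc17a7) to −0.08 in repeated minus acute, from −0.83 (Nrn1) to −0.02 in withdrawal minus acute, and from −0.14 to 0.36 (Slc17a7) in withdrawal minus repeated. By the series' own criteria, a change of 1.3-fold or more and p under 0.05 without adjustment, 0 of 8 probes qualified in any of the 6 comparisons. Of all kept probes 2.77% did so in acute minus saline, 4.59% in repeated minus saline and 3.94% in withdrawal minus saline, and 3.18%, 3.39% and 1.55% in repeated minus acute, withdrawal minus acute and withdrawal minus repeated. For the brighter Fezf2 probe all acute arrays lay above all saline arrays, an ordering that 3.58% of all kept probes shared, and 7.5% were separated in either direction. In each other comparison the 2 groups overlapped for all 8 probes, while they were separated for 16.8% of all kept probes in repeated minus saline, 14.5% in withdrawal minus saline, 10.5% in repeated minus acute, 9.91% in withdrawal minus acute and 7.5% in withdrawal minus repeated.

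Grouped by the number in the title, 4 arrays each, the genes were mostly highest on arrays numbered 2. Slc17a7 read 452, 16.9, 236 and 114 on the arrays numbered 1 (acute, repeated, withdrawal, saline), 230.5, 747, 1055 and 1203 on those numbered 2, and 821, 694, 75.1 and 28.3 on those numbered 3. Number 2 was the highest of its group in 3 of 4 groups for Slc17a7, Tbr1 and Nrn1, and in 2 of 4 for the brighter Neurod2 probe, and in the acute group it was the lowest for all 4. Mean log2 intensity of Slc17a7 was 6.91 ± 2.05 for number 1, 9.42 ± 1.09 for number 2 and 7.54 ± 2.40 for number 3 (SD, n = 4). For Nrn1 the means were 6.18 ± 1.68, 8.99 ± 0.72 and 6.84 ± 2.07, for Tbr1 5.09 ± 1.63, 7.58 ± 0.97 and 5.73 ± 2.23, and for Neurod2 5.55 ± 1.26, 7.60 ± 0.75 and 5.98 ± 2.21. Fezf2 gave 7.71 ± 0.40, 8.10 ± 0.19 and 7.85 ± 0.31, and Lamp5 11.96 ± 0.20, 11.82 ± 0.32 and 11.76 ± 0.34.

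None of these differences passed the adjusted test. With treatment group as a covariate, number 1 minus the mean of numbers 2 and 3 was −1.58 ± 1.16 for Slc17a7 (limma adjusted p = 0.507), −1.56 ± 0.97 for Tbr1 (0.431), −1.24 ± 0.89 for Neurod2 (0.494) and −1.73 ± 0.92 for Nrn1 (0.353). It was −0.27 ± 0.17 for Fezf2 (0.433) and 0.17 ± 0.19 for Lamp5 (0.687). Without repeated array 1 the difference was −0.30 for Slc17a7, −0.62 for Tbr1, −0.40 for Neurod2 and −0.77 for Nrn1, and leaving out other arrays it reached −2.17, −2.11, −1.69 and −2.29. The test called 0 of 8 probes, while 3.98% of all kept probes, 1013 in number, were called. At an unadjusted p under 0.05 it was 0 of 8, against 18.4%. In number 1 minus number 2, where 3.94% of all kept probes were called, 0 of 8 passed, the nearest being Nrn1 at −2.81 ± 1.06 (limma unadjusted p = 0.028, adjusted p = 0.183). It was the 1 of 8 with an unadjusted p under 0.05, against 20.6% of all kept probes. In number 1 minus number 3 and number 2 minus number 3 the count was 0 of 8 as well by limma, against 2.08% and 0% of all kept probes, and 0 of 8 at an unadjusted p under 0.05, against 13.2% and 9.67%.

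Within the treatment groups, Tbr1, Neurod2 and Nrn1 rose and fell with Slc17a7. Per log2 unit of Slc17a7, with treatment group held fixed, Neurod2 changed by 0.78 ± 0.03 log2 units (SE, limma adjusted p = 5.16e-05), Tbr1 by 0.88 ± 0.05 (adjusted p = 0.000137) and Nrn1 by 0.89 ± 0.07 (adjusted p = 0.00106). These 3 of 7 other probes were called, against 0.216% of the 25477 probes tested. The genes were chosen with earlier results of these data known, so this count is no independent support. The dimmer Neurod2 probe had a slope of 0.33 ± 0.07 (adjusted p = 0.117), the Fezf2 probes 0.12 ± 0.03 (0.141) and 0.22 ± 0.04 (0.0651), and these stayed short of limma's threshold. Lamp5 had a slope of −0.10 ± 0.04 (limma adjusted p = 0.442). With the array number as a block added, the slopes of Neurod2, Tbr1 and Nrn1 were 0.76, 0.83 and 0.78, and these genes passed under each alternative that tested them. This fit was added after the values had been seen.

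Over the 12 arrays, Pearson's r with Slc17a7 was 0.98 for Tbr1, 0.98 for the brighter Neurod2 probe and 0.97 for Nrn1, with Spearman's rho of 0.97 for each (permutation p for r = 1e-05, the smallest the permutations can give, adjusted 2.33e-05 over 7 relations). It was 0.86 for the brighter Fezf2 probe (rho 0.78, permutation p = 0.00045, adjusted 0.000787), 0.82 for the other (rho 0.85, permutation p = 0.00124, adjusted 0.00145) and 0.85 for the dimmer Neurod2 probe (rho 0.84, permutation p = 0.00069, adjusted 0.000966). Lamp5 ran the other way, with r = −0.65 and rho = −0.65 (permutation p = 0.0255 and 0.0263, with the same values after adjustment). Without repeated array 1 and saline array 3, the arrays farthest from the median in Slc17a7, r was 0.98 for Tbr1, 0.99 for Neurod2, 0.96 for Nrn1, 0.79 and 0.92 for the Fezf2 probes, 0.79 for the dimmer Neurod2 probe and −0.54 for Lamp5. Each number holds 4 arrays, too few for a correlation of its own.

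**Figure D3:**
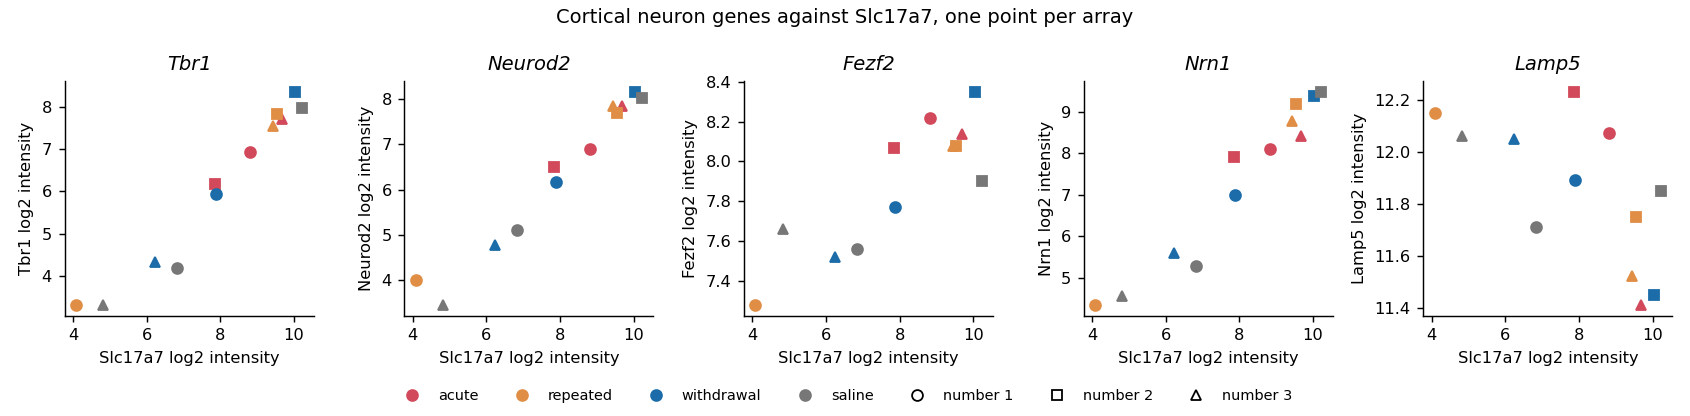
Log2 intensity of 5 genes (vertical axis, a scale of its own in each panel) against that of Slc17a7 (horizontal axis), 1 point per array, coloured by group and shaped by array number. Tbr1, Neurod2 and Nrn1 lie close to a rising line (r = 0.98, 0.98 and 0.97), Fezf2 rises over a much narrower range (r = 0.86) and Lamp5 falls (r = −0.65).

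The ratio of these genes to Slc17a7 was steadier than their levels, which follows from the slopes and correlations above and is no separate result. Over the 10 arrays that detected Tbr1 its log2 ratio to Slc17a7 had an SD of 0.29, against 1.50 for its log2 level. For Neurod2 the SD was 0.56, against 1.46, over 11 arrays, and for Nrn1 0.51, against 1.91, over 12. Ranked by the correlation of deviations from the group means, the brighter Neurod2 probe had rank 1, Tbr1 rank 3 and Nrn1 rank 6 of 25477 probes. The Fezf2 probes had ranks 204 and 106, the dimmer Neurod2 probe 250 and Lamp5 24700.

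Among other genes with a mean log2 of at least 7, the 8 most like Slc17a7 by that correlation were Slc30a3 (0.989), the neuropeptide gene Cck (0.979), Tmem178 (0.966), Abcb9 (0.963), the perineuronal net gene Hapln4 (0.962), the neurofilament gene Nefm (0.962), Ccn2 (0.960) and the potassium channel gene Kcna6 (0.959). Slc30a3 ranged from 13.8 on saline array 3 to 792 on saline array 2. Cck ranged from 96.9 on repeated array 1 to 1166 on withdrawal array 2. A high correlation did not require a wide range: Abcb9 and Kcna6 ranged 1.39-fold and 1.35-fold. Their slopes on Slc17a7, 0.07 and 0.06, did not pass limma's adjusted test. The lowest 4 were Lrrtm1 (−0.961), Man1a (−0.951), Esyt2 (−0.950) and Inpp5f (−0.935). The slopes of these 4 ran from −0.10 to −0.05, none past limma's adjusted test. The genes named here are the extremes of a search over 10830 probes, and no p is given for their correlations.

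Other genes used as markers of cortical neurons moved with Slc17a7 in part. Of 18 such genes 14 were kept and 13 had a positive slope, with a median of 0.23 log2 units per unit of Slc17a7, against 0 over all probes. The marker lists were chosen with earlier results of these data known, so counts from them are no independent support. The adjusted test called 5 upward and 0 downward, against 0.204% and 0.0118% of all probes. The 4 with the smallest p were Slc30a3 (1.01, limma adjusted p = 0.000129), Cck (0.61, adjusted p = 0.000988), Ccn2, a marker of the deepest cortical layer (0.41, adjusted p = 0.00786), and Ntng2 (0.43, adjusted p = 0.0366). Slc30a3 and Cck passed under every alternative that tested them, Ccn2 under 16 of 18 settings and Ntng2 under 6 of 17. With the array number as a block, or without saline array 2, 2 of the 14 were called by limma, Slc30a3 and Cck, and 3 or 4 were called without any other single array. The summed intensity of the 14 kept genes ran from 5567 to 6436 in acute, 4463 to 7210.0 in repeated, 4311 to 7359 in withdrawal and 4224 to 7998 in saline arrays.

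Of 12 interneuron genes, all kept, 3 had a called slope, all upward, against 0.204% of all probes upward and 0.0118% downward, and the median was 0.01. They were Cort, which encodes the neuropeptide cortistatin (0.57, limma adjusted p = 0.00758), Vip, the gene of vasoactive intestinal peptide (0.48, adjusted p = 0.0224), and Pvalb, encoding the calcium buffer parvalbumin (0.35, adjusted p = 0.033). With array number as a block, or without saline array 2, 0 of 12 were called by limma. Without any 1 of repeated arrays 1, 2 and 3 or withdrawal arrays 2 and 3, Cort alone was called. Cort passed under 16 of 18 settings, Vip under 11 and Pvalb under 7. Sst, another interneuron neuropeptide gene, ranged from 6865.5 to 11181 with a slope of 0.04, and the acetylcholine-synthesizing enzyme gene Chat had a slope of −0.03, neither passing the test.

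No medium spiny neuron gene had a slope on Slc17a7 that passed the test: 0 of 17 were called by limma, and 1 had an unadjusted p under 0.05. Their slopes were small, 14 negative and 3 positive, with a median of −0.01, near the −0.003 over all probes. The share of negative slopes among all probes was not counted. Their summed intensity was lowest on saline array 2 (110178.5), the array highest in Slc17a7, and highest on withdrawal array 1 (132438.9), where Slc17a7 read 236. The arrays lowest in Slc17a7, repeated array 1 and saline array 3, lay in groups whose sums reached at most 120596.5 and 120049.3. The count called was also 0 for the 4 septal, 5 thalamic, 4 hypothalamic, 8 oligodendrocyte, 10 astrocyte, 10 microglial, 7 choroid plexus and ependymal, and 8 blood, vessel and meningeal genes kept. At an unadjusted p under 0.05 the counts by limma were 0, 1, 2, 0, 0, 1, 3 and 0, where 8.90% of all probes had such a p. The nearest was Slc17a6, the vesicular glutamate transporter of thalamic and other subcortical neurons, with a slope of 0.48 (adjusted p = 0.0603) and a range from 66.8 to 622. All 7 choroid plexus and ependymal genes had a negative slope, with a median of −0.08. Ttr, the transthyretin gene of choroid plexus, ranged from 9.72 on acute array 1 to 1696 on withdrawal array 3 with a slope of −0.52 (adjusted p = 0.503). Their part in the variation of the cortical neuron genes was not tested.

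**Figure D4:**
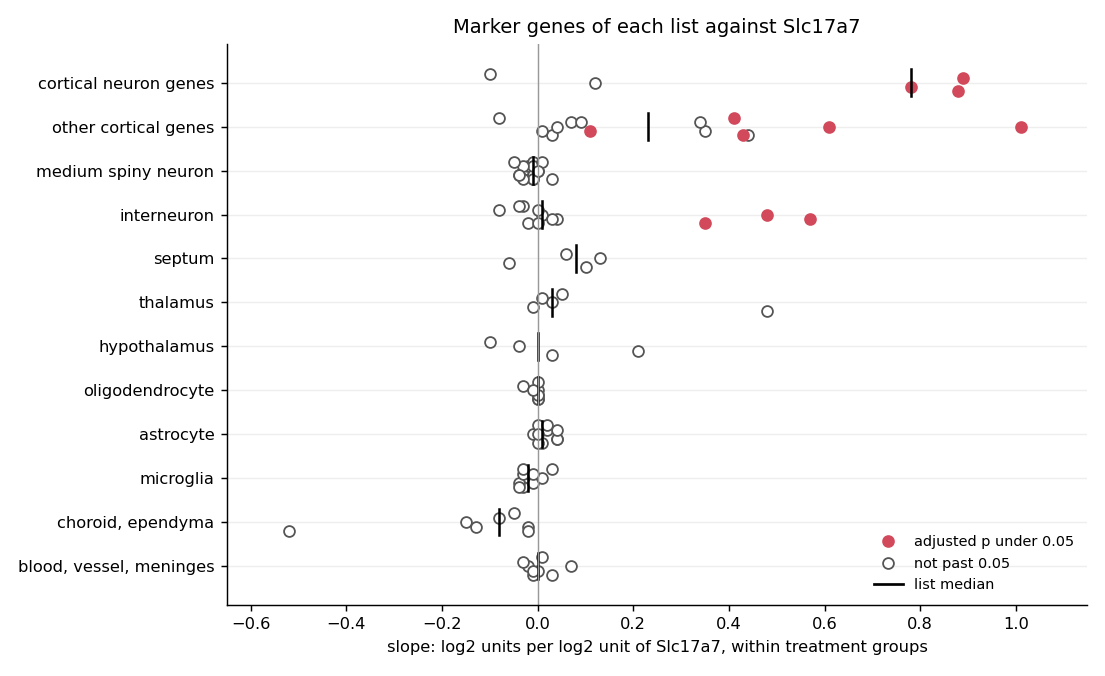
Change in log2 intensity per log2 unit of Slc17a7 (horizontal axis), with treatment group held fixed, for each kept gene of 12 marker lists (rows), where filled red points passed limma's adjusted threshold of 0.05, open points did not, and black bars are list medians. Called genes stand in the cortical neuron, other cortical and interneuron rows, with medians of 0.78, 0.23 and 0.01, and the 17 medium spiny neuron genes lie around −0.01.

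In all, 55 of 25477 probes were called against Slc17a7, 52 with a positive and 3 with a negative slope. Bdnf, a growth factor that cortical neurons supply to the striatum, had a slope of 0.64 (limma adjusted p = 0.0115), and the orphan nuclear receptor gene Nr4a2 had 0.61 (adjusted p = 0.00255). These were picked after their values were seen. Bdnf ranged from 4.48 on repeated array 1 to 135 on withdrawal array 2, and Nr4a2 from 8.68 on repeated array 1 to 172 on saline array 2. The count fell to 9 with the array number as a block and to 9 without saline array 2, to 13 without repeated array 1, 15 without repeated array 3, 17 without withdrawal array 2 or 3, 18 without repeated array 2, 28 without saline array 3 and 29 without acute array 3.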

How the data were processed

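Per the series text and the submitters' processing notes, the authors used BeadStudio, of unstated version, to subtract background from bead intensity and to quantile normalize it. The deposited intensity tables are on a linear scale: 1 before and 1 after subtraction, differing by a constant of 60.7 on every array, both already quantile normalized (sorted values of the unsubtracted table differed between arrays by at most 0.725). Per the file headers, the authors' unsubtracted table also gives every probe a detection p-value on every array. Differences in total signal between arrays were thus removed before deposit, and array medians lay between 15.6 and 15.7.

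Subtracted values under 10 were set to 10 before taking log2, and 25478 of 45281 probes with a detection p under 0.05 on at least 3 of 12 arrays were kept, 6.34% of whose values lay at the floor. The probe-to-gene table gave 1 symbol for 34885 probes, several for 18, and did not list 10378. Where a gene has several kept probes, the brightest stands for it unless stated. Gene coordinates and promoters are from RefSeq (GRCm38.p6). No arrays held identical values (correlations 0.973 to 0.992).

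Differences were fitted with lmFit and eBayes of limma 3.58.1 in R 4.3.3, two-sided, on all 12 arrays. Benjamini-Hochberg adjustment ran over all kept probes of a comparison, with a threshold of 0.05. The fit of the group differences had 8 residual and 2.16 prior degrees of freedom. Fits were tested on simulated data. Groups had no covariate. Array numbers were compared with treatment group as covariate, and so was the slope on log2 Slc17a7, which was added after the data were seen. Correlations used 100000 permutations. The number of arrays limits the precision.

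The members and marker lists were chosen with earlier results of these data known. Every probe of the 7 genes is described. Of each list the up to 4 genes with the smallest p may be named, and the 8 genes most and 4 least like Slc17a7 among probes with a mean log2 of at least 7. Chat and Sst, Bdnf and Nr4a2, and Drd2 and Ppp1r1b in the tissue check, were named for their roles after values were seen.

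The groups share array numbers in the titles. Deviations of same-numbered arrays from their group means correlated above 0.1 for every number in repeated against saline (0.47, 0.34 and 0.13), withdrawal against saline (0.39, 0.29 and 0.17) and repeated against acute (0.44, 0.25 and 0.26), so the numbers were taken to pair those arrays. At least 1 number fell to 0.06 or less in the other 3 comparisons. The group differences, errors and p given in the results nevertheless come from fits that leave this pairing out. Pairing entered the group comparisons only as an alternative, the number as a block. With that block the errors of the differences from saline were smaller for Slc17a7, Tbr1, Neurod2, Fezf2 and Nrn1. For Lamp5 the error was larger, and no probe of these genes was called by limma. Alternatives were other floors, unsubtracted signals, other detection filters, 1 probe per gene, array weights, the number as a block, only the groups compared, and leaving out arrays.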

Additional observations from a re-analysis of the deposited data

Results flagged for a closer look

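Of 24 sets of 4 same-numbered arrays, 1 held an array standing apart from the others. The second Fezf2 probe, ILMN_2932692, read 18.1 on repeated array 1, against 39.0, 39.2 and 35.2 on the acute, withdrawal and saline arrays numbered 1. Its gap to the nearest array was 0.86 of the whole range on the log2 scale. Chance gives such a gap in about 1 in 20 sets. Repeated array 1 was also the lowest in Slc17a7, at 16.9.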

How the results depend on the processing

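The cortical neuron genes kept 0 called probes in each of the 6 group comparisons and in number 1 minus numbers 2 and 3 under every alternative run, the replicate block (array number as a block) and the removal of each array included. Of the slopes on Slc17a7, 3 probes were called, 6 with unsubtracted signals and 3 with the replicate block. The slope ranges over alternatives were 0.59 to 0.85 for Neurod2, 0.67 to 1.02 for Tbr1 and 0.78 to 0.92 for Nrn1. Detection on all 12 arrays removed Tbr1 and both Neurod2 probes from the test. The replicate block changed no call of these genes.

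Counts of called probes over the whole array moved more. Single probes appeared or vanished in the group comparisons: acute minus saline had 1 with unsubtracted signals (0 to 1 leaving out an array), repeated minus saline 1 with a floor of 20, unsubtracted signals or 1 probe per gene (0 to 1), withdrawal minus saline 1 with a floor of 20 or no detection filter (0 to 1), and withdrawal minus acute 1 under the same settings (0 to 1). Withdrawal minus repeated had 1 under those settings and 2 with array weights. The 1 probe of repeated minus acute, for Olfr352, was lost (0) with a floor of 20, unsubtracted signals, detection on all 12 arrays, no filter, the replicate block, only those groups, no arrays numbered 1, or log2 Slc17a7 as a covariate (0 to 4 leaving out an array). The 1013 probes of number 1 fell to 496 with a floor of 20, 201 with detection on all 12 arrays, 401 with no filter, 294 with 1 probe per gene, 474 without the saline arrays and 552 to 950 leaving out an array, and were 1413 with array weights. The 55 slopes became 336 with unsubtracted signals, 111 with detection on all 12 arrays, 9 with the replicate block, and 9 to 52 leaving out an array. The cause was not tested.

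Signs of differences from saline, none past the test, turned in places. Acute minus saline for Lamp5 was −0.14 without arrays numbered 1 and −0.14 to 0.28 leaving out an array. With array weights, withdrawal minus saline was −0.04 for Slc17a7 and 0.02 for Lamp5. Leaving out an array, repeated minus saline ran from −0.85 to 2.19 for Slc17a7, −0.06 to 2.23 for Neurod2, −0.03 to 0.37 for Fezf2 and −0.24 to 0.07 for Lamp5. Withdrawal minus saline ran from −0.48 to 2.22 for Slc17a7, −0.03 to 2.45 for Tbr1, −0.20 to 2.08 for Neurod2, −0.06 to 0.36 for Fezf2, −0.15 to 2.39 for Nrn1 and −0.21 to 0.09 for Lamp5. Dim values set a limit: Tbr1 on 2 arrays and Neurod2 on 1 were not detected, and Neurod6 was detected on 0 of 12.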
